A study of Mus musculus with 6 samples.

Results

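The 36 genes described here are effectors that cells switch on when interferon binds its receptors, other than the Ifit, Ifitm, OAS and immunity-related GTPase families. They were chosen by symbol, as a named list of such genes, with earlier results of these data known. Counts of members below are therefore no independent evidence of direction. All 36 were found among the 55416 genes of the count table. Of these, 34 passed the filter on low counts that left 17659 genes in the test, whereas Epsti1 and Trex1 did not. The cells were primary keratinocytes, the main cells of the epidermis, grown from the skin of newborn C57BL/6J:129 hybrid mice aged 1 to 2 days. The wild type group and the Cebpb knockout group, labelled CEBPB KO and C/EBPβ -/-, had 3 libraries each. Both groups received 10 mJ/cm2 of UVB light and were collected 8 h later. The deleted gene, Cebpb, encodes the transcription factor C/EBPβ. Every library was irradiated, so the values compare genotypes and say nothing of what UVB itself changed. The series title names the type I interferon response as one of the questions of the study. The sources used here do not say how the knockout allele was made, nor whether each library stems from its own animals or culture. The p-values therefore measure the spread between these libraries, which may be technical.

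Type I and type III interferons act through receptor-bound kinases that lead to the transcription factor complex ISGF3, of which IRF9 is a part. ISGF3 binds the interferon-stimulated response element (ISRE) in the promoters of its target genes. IRF3, which is activated by nucleic acid sensors, binds a similar element and can switch on some of the same genes without interferon. The products act at many steps of an infection: some attach the ubiquitin-like protein ISG15 to other proteins, some add ADP-ribose or ubiquitin, some degrade or modify nucleic acids and nucleotides, and some trap viral particles. Keratinocytes carry the receptors for both types of interferon, and several of these genes are also induced in skin by ultraviolet light.

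The ISRE is the sequence feature by which these genes are best known, so it was searched in the promoter windows of the members. RefSeq windows of 300 bases (assembly GRCm38.p6, 250 bases before the start site and 50 after it) matched 28 of the 36 members by symbol. Mx1, Mx2, Usp18, Ifi27, Parp9, Parp14, Rtp4 and Tor3a had no window. Its core, GAAA and again GAAA with any 2 bases between them, read on both strands, was present in 7 of the 28 members (25%) and in 3.99% of the 27025 genes with a window. Isg15, Bst2, Rsad2, Trim21, Trim34a and Eif2ak2 held it and were called higher in the knockout, and Trim30a held it and was not called. Another 15 members that were called higher had a window without these exact letters. The stretches below show the members with the core, in capitals, to let the repeats be compared. The first 4 are the 150 bases before the start site on the gene's own strand. They lie at chr4:156200819-156200968 (minus strand) for Isg15, chr8:71537473-71537622 (minus) for Bst2, chr12:26456453-26456602 (minus) for Rsad2 and chr7:104465194-104465343 (minus) for Trim30a. The last 3 are sites of 30 bases just past the start site, at chr7:102565447-102565476 (minus) for Trim21, chr7:104244457-104244486 (plus) for Trim34a and chr17:78882535-78882564 (minus) for Eif2ak2.
Isg15: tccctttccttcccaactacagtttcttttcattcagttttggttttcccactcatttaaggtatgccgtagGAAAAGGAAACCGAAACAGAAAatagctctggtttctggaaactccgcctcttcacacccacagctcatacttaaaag
Bst2: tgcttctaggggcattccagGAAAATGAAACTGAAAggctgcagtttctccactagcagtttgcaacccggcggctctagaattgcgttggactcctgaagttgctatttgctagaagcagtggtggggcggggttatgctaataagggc
Rsad2: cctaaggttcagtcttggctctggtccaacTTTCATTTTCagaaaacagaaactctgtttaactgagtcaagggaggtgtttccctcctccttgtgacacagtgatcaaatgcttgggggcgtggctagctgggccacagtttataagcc
Trim30a: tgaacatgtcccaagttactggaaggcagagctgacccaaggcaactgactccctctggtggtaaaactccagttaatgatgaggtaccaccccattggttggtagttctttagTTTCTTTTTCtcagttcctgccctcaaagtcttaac
Trim21: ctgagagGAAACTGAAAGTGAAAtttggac
Trim34a: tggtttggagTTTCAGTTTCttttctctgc
Eif2ak2: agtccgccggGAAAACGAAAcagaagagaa
Isg15 held 3 overlapping cores between bases -78 and -57 from its start site, and Bst2 held 2 between -130 and -115. Rsad2, Trim30a and Trim34a held the core on the other strand, where it reads TTTC on either side of the 2 free bases. The GAS motif TTCNNNGAA, an element linked to interferon gamma, was present in 5 of the 28 members (17.9%) and 9.55% of all genes. The C/EBP motif TTGCNNAA was present in 3 of the 28 members, Sp100, Samhd1 and Slfn2 (10.7%), and in 12.2% of all genes. These matches describe letters in a window and are not binding data.

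The libraries were deep, with total counts of 107757415 to 122797031 in wild type and 81256192 to 92987497 in knockout, so that 3 counts correspond to 0.0349 CPM (counts scaled to library size) or less. Cebpb itself averaged 145 CPM in wild type libraries, against 0.942 CPM in the knockout (adjusted p = 1.51e-14 by edgeR). All 5 keratinocyte markers (Krt5, Krt14, Krt15, Itga6 and Trp63) were lower in the knockout, with sums of 33418 to 38233 and 18878 to 20062 CPM. Krt5 (wild type mean 19819, knockout mean 11534 CPM) and Krt14 (14952 and 7870 CPM) made up most of these sums. Krt15 was far scarcer, with genotype means of 9.69 and 5.64 CPM. Of 10 immune cell markers 3 were tested, and Cd68 and Csf1r were lower and Trdc higher. The list of 10 summed to 48.6 to 58.2 CPM in wild type and 28.5 to 32.0 CPM in knockout. Most of both sums was Cd68 alone, with means of 49.1 and 27.2 CPM. Cd3e was at 0 in every library and the pan-leukocyte gene Ptprc averaged 0.0197 and 0 CPM. Melanocyte markers summed to 470 to 528 and 418 to 476 CPM, with 3 of 5 lower. Of the fibroblast markers 1 of 4 tested was lower, with Lum at 0 throughout and sums of 4.82 to 6.36 and 4.01 to 4.44 CPM. Of the endothelial markers 1 of 3 tested was lower, with Cdh5 at 0 throughout and sums of 6.97 to 7.47 and 4.95 to 5.87 CPM. Y-linked genes summed to 60.7 to 68.1 CPM in wild type and 0.101 to 0.158 CPM in knockout libraries, and Xist averaged 401 and 587 CPM. Every wild type library held both Y-linked RNA and Xist (387 to 414 CPM), as a pool of male and female cells would. The knockout libraries held Xist with almost no Y-linked RNA. Sex-linked transcripts thus ran with genotype, and in every value below the 2 cannot be told apart. The part of the marker differences in the results was not tested. In these bulk samples, fewer cells of a type and less RNA per cell cannot be told apart either.

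Most of these effector genes were higher in knockout cells. The quasi-likelihood test of edgeR, with p-values adjusted by Benjamini-Hochberg over all genes, called 27 of the 34 tested members higher (adjusted p under 0.05), against 24.8% of all genes tested. No member was called lower, against 23.7% of all genes. The count of members lower was 0 also at an unadjusted p under 0.05, with DESeq2 and with limma voom. The median log2 fold change of knockout over wild type was 1.05, which compares with 0.01 over all genes tested, and 18 members had a log2 fold change of at least 1, against 9.85% of all genes tested. In 27 members the lowest knockout library lay above the highest wild type library, against 28.7% of all genes, and in no member was the order the opposite. Groups did not overlap, in one direction or the other, in 56.4% of all genes. These are the 27 that were called, and the narrowest gap among them was 1.08-fold, in Trim25. Usp18 and Rtp4 stood at the top with 4.89-fold and 4.75-fold, and Mx1 and Trim30a at the bottom with 0.755-fold and 0.821-fold.

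**Figure D1:**
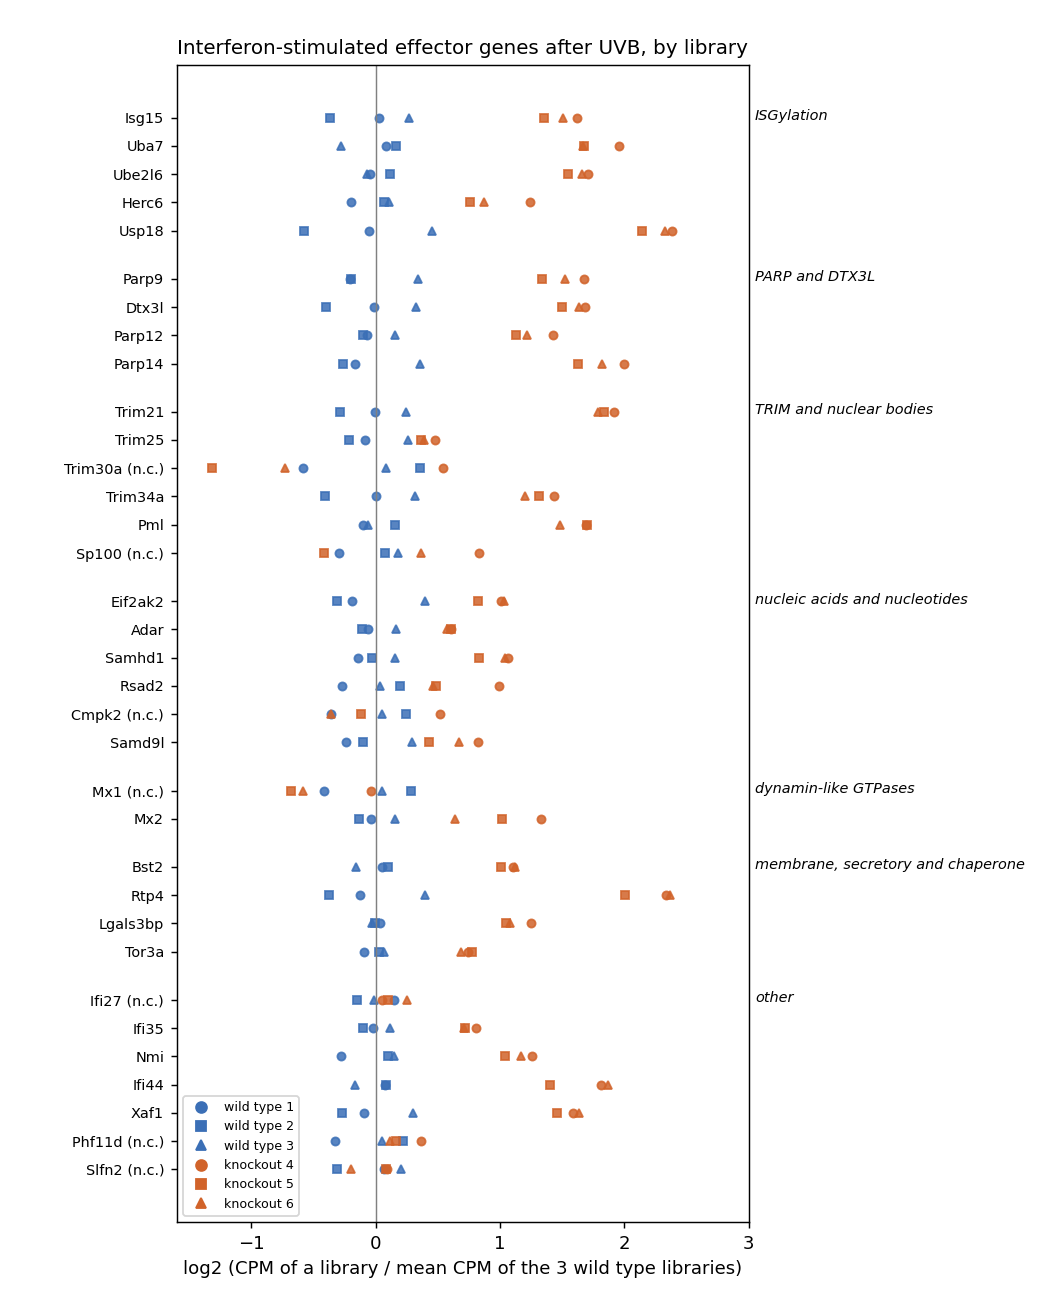
Level of each tested member in each library, as log2 of its CPM over the mean CPM of the 3 wild type libraries (x axis), with members grouped by role (y axis). Each point is 1 library, blue for wild type and orange for knockout, the marker shape gives the replicate, and n.c. marks the 7 members that were not called. In 27 members all knockout points lie to the right of all wild type points.

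All 5 genes of the ISG15 conjugation pathway rose in the knockout, with a median of 1.64 log2 units. ISGylation resembles ubiquitination: an activating, a conjugating and a ligating enzyme attach ISG15 to lysines of target proteins, and a protease removes it. Isg15 (ENSMUSG00000035692), the modifier itself, stood at 37.9, 28.9 and 44.8 CPM in wild type libraries 1, 2 and 3 and at 114, 95.1 and 106 CPM in knockout libraries 4, 5 and 6. The groups were far apart. As a ratio of the highest to the lowest library, the range was wider in wild type (1.55) than in knockout (1.2), while in CPM the SD was 7.97 and 9.71. Isg15 rose 2.83-fold (log2 fold change 1.5 ± 0.14, SE, adjusted p = 1.22e-05 by edgeR). Uba7, the activating enzyme, was scarce at 0.860, 0.912 and 0.672 CPM in wild type and reached 3.16, 2.60 and 2.58 CPM in knockout, a 3.40-fold rise (adjusted p = 2.02e-06). Ube2l6, the conjugating enzyme, held narrow ranges in both genotypes, at 6.38, 7.11 and 6.27 CPM against 21.6, 19.2 and 20.8 CPM, and rose 3.11-fold (1.64 ± 0.10, adjusted p = 1.90e-09). Herc6, the main ISG15 ligase of the mouse, had few reads, with 47, 59 and 52 counts in wild type and 109, 81 and 76 counts in knockout. It rose 1.96-fold (adjusted p = 0.00801), and the call was lost without knockout replicate 4 (log2 fold change 0.81, adjusted p = 0.0516).

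Usp18 (ENSMUSG00000030107), the protease that removes ISG15 and that also restrains signalling at the receptor chain IFNAR2, had the largest fold change of the 34. It stood at 20.3, 14.1 and 28.9 CPM in wild type and at 110, 93.2 and 105 CPM in knockout. The highest wild type library held 2.05 times the lowest, the widest wild type range among the members, whereas the knockout libraries lay within 1.18 times of each other. Usp18 rose 4.89-fold (2.29 ± 0.24, adjusted p = 1.04e-04). Within a library, the count of Isg15 was 1.87, 2.05 and 1.55 times that of Usp18 in wild type and 1.04, 1.02 and 1.00 times in knockout. This ratio needs no scaling between libraries. It was chosen after the values were seen, and with 3 libraries against 3 an exact two-sided permutation test could not go below 0.10.

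The 4 ADP-ribosylation genes rose together, by 1.26 to 1.83 log2 units. PARP9 and DTX3L form a complex that joins ADP-ribosylation to ubiquitination, and PARP12 and PARP14 attach single ADP-ribose units. Dtx3l, Parp9 and Parp14 are also neighbours on chromosome 16 in the GENCODE M21 annotation, with Dtx3l and Parp9 head to head. Parp9 stood at 13.0, 13.1 and 18.9 CPM in wild type and at 48.0, 37.9 and 43.1 CPM in knockout (2.87-fold, 1.52 ± 0.14, adjusted p = 9.79e-07). Dtx3l stood at 27.3, 21.0 and 34.5 CPM and at 88.5, 77.8 and 85.5 CPM (3.04-fold, adjusted p = 1.31e-05). The 2 genes of the pair kept their proportion, since Parp9 had 0.475, 0.624 and 0.549 counts per count of Dtx3l in wild type and 0.542, 0.487 and 0.504 in knockout. Their exons overlap on opposite strands over 9.40% of Parp9 and 8.00% of Dtx3l, and reads there cannot be assigned to one of them if strand was not used in counting. Parp14 rose from 9.51, 8.89 and 13.7 CPM to 42.8, 33.1 and 37.7 CPM (3.54-fold, adjusted p = 4.10e-07). Parp12, which lies elsewhere in the genome, had the smallest rise of the group, from 16.5, 16.2 and 19.3 CPM to 46.6, 38.0 and 40.3 CPM (2.40-fold, adjusted p = 2.01e-08).

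The TRIM and nuclear body genes were mixed, with 4 of 6 higher and 2 not called. TRIM proteins are ubiquitin ligases, and PML and SP100 are structural parts of the nuclear bodies named after PML. Trim21 (ENSMUSG00000030966), a cytosolic receptor of antibody-coated particles, rose most, from 13.7, 11.3 and 16.3 CPM to 52.0, 49.1 and 47.4 CPM (3.60-fold, 1.85 ± 0.11, adjusted p = 9.28e-10). Pml stood at 38.6, 46.0 and 39.5 CPM in wild type and at 134, 134 and 115 CPM in knockout (3.09-fold, 1.63 ± 0.08, adjusted p = 1.16e-10), the smallest p among the members. In both genes the gap between genotypes was several times the spread within them. Sp100, its partner in the nuclear body, did not share that separation. It stood at 1.65, 2.14 and 2.30 CPM in wild type and at 3.60, 1.52 and 2.62 CPM in knockout, so that knockout library 5 was below every wild type library and knockout library 4 above every other one. It was not called (0.35 ± 0.25, adjusted p = 0.279), but was without knockout replicate 5 (0.62, adjusted p = 0.0317).

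Trim34a rose from 5.18, 3.90 and 6.45 CPM to 14.0, 12.9 and 11.9 CPM (2.50-fold, adjusted p = 2.59e-06). Trim25, a ligase of the RIG-I pathway, was abundant in both genotypes and had the smallest called rise, from 110, 100 and 139 CPM to 162, 150 and 152 CPM (1.33-fold, 0.41 ± 0.10, adjusted p = 0.00271). Its 3 knockout libraries lay close together just above wild type library 3. Trim30a, a mouse gene that restrains NF-kB signalling, was the most uneven of all members. It stood at 1.16, 2.22 and 1.83 CPM in wild type and at 2.53, 0.696 and 1.05 CPM in knockout, where the highest library held 3.64 times the lowest. It was not called (-0.28 ± 0.43, adjusted p = 0.626). Without knockout replicate 4 it was called lower (log2 fold change -1.0, adjusted p = 0.0106), and without knockout replicate 5 the value was 0.048. Trim30a and Trim34a have close relatives in the same gene cluster, and their reads can be shared.

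Of the 7 genes that act on nucleic acids or nucleotides, 5 rose, Cmpk2 was not called and Trex1 was not tested. Eif2ak2 encodes PKR, which stops translation on binding double-stranded RNA. It rose from 37.0, 34.0 and 55.7 CPM to 85, 74.6 and 86.3 CPM (1.94-fold, 0.96 ± 0.17, adjusted p = 0.00207), with wild type library 3 well above the other wild type libraries. Adar, which edits adenosine to inosine in such RNA, was the most abundant of these genes in CPM, which are not corrected for gene length. It rose from 148, 143 and 172 CPM to 235, 235 and 229 CPM (1.51-fold, 0.59 ± 0.07, adjusted p = 2.17e-06). The knockout libraries of Adar agreed within 1.02 times, the tightest set of any member. Samhd1, which breaks down deoxynucleotides, rose from 5.57, 6.05 and 6.88 CPM to 12.9, 11 and 12.7 CPM (1.98-fold, adjusted p = 4.35e-06). Samd9l, an antiviral factor, rose from 3.26, 3.59 and 4.71 CPM to 6.83, 5.18 and 6.12 CPM (1.57-fold, adjusted p = 0.00302).

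Rsad2 and Cmpk2 are head-to-head neighbours on chromosome 12, and the products of both act on nucleotides. CMPK2 is a nucleotide kinase of mitochondria, and RSAD2 (viperin) turns CTP into a chain terminator of viral RNA. Rsad2 (ENSMUSG00000020641) stood at 14.8, 20.3 and 18.2 CPM in wild type and at 35.3, 24.9 and 24.4 CPM in knockout (1.59-fold, 0.67 ± 0.15, adjusted p = 0.00202). Cmpk2 (ENSMUSG00000020638) stood at 5.40, 8.22 and 7.20 CPM in wild type and at 9.92, 6.39 and 5.40 CPM in knockout, with overlapping groups, and was not called (0.06 ± 0.21, adjusted p = 0.840). In both genes wild type library 1 was the lowest and wild type library 2 the highest of their group, and knockout library 4 stood above the other knockout libraries. The count of Rsad2 per count of Cmpk2 was 2.73, 2.47 and 2.53 in wild type and 3.56, 3.89 and 4.53 in knockout, without overlap. This ratio was chosen after its values were seen, and the same limit of 0.10 holds for its exact permutation p.

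Trex1, which encodes a cytosolic DNA exonuclease, had 0 counts in all 6 libraries. All of its 1147 exonic bases in GENCODE M21 lie within exons of Atrip on the same strand, and Atrip had 2633 to 3783 counts in a library. Whether reads of these shared bases were counted for Atrip or dropped is not stated in the sources used here. The count of 0 is therefore no measure of Trex1 expression. Epsti1 had at most 2 counts in a library, which is under the 3 counts that a count of 0 allows.

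The dynamin-like GTPases Mx1 and Mx2, which block viral replication in the nucleus and in the cytoplasm, held 1 member that rose, Mx2, and 1 that was not called. The difference between them was not tested. Mx2 stood at 2.95, 2.76 and 3.36 CPM in wild type and at 7.60, 6.09 and 4.71 CPM in knockout (2.03-fold, 1.02 ± 0.17, adjusted p = 1.05e-04). Mx1 stood at 3.24, 5.24 and 4.45 CPM in wild type and at 4.20, 2.68 and 2.87 CPM in knockout, so the groups overlapped and no call was made (-0.41 ± 0.20, adjusted p = 0.106). Without wild type replicate 1 Mx1 was called lower (log2 fold change -0.58, adjusted p = 0.0181), and so it was without knockout replicate 4 (-0.63, adjusted p = 0.0154). Many inbred mouse strains carry a defective Mx1 gene, and the allele of these hybrid mice is not given in the sources used here.

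All 4 genes of the membrane and secretory group rose. Rtp4 (ENSMUSG00000033355), a chaperone that brings certain receptors to the cell surface, came second among all members. It rose from 3.69, 3.10 and 5.31 CPM to 20.4, 16.2 and 20.8 CPM (4.75-fold, 2.25 ± 0.17, adjusted p = 3.91e-08), with a gap far wider than the range within either genotype. Bst2, or tetherin, which ties budding virions to the membrane, was even in both groups, at 51.6, 53.3 and 44.6 CPM and at 107, 100 and 108 CPM (2.11-fold, adjusted p = 5.00e-09). Lgals3bp, a secreted glycoprotein that binds galectins, had the narrowest wild type range, at 14.8, 14.3 and 14.0 CPM. It rose to 34.1, 29.7 and 30.4 CPM (2.18-fold, adjusted p = 2.21e-08). Tor3a, an ATPase of the endoplasmic reticulum, rose from 33.0, 35.9 and 37.1 CPM to 59.0, 60.4 and 56.9 CPM (1.66-fold, adjusted p = 2.91e-07).

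The remaining 8 genes held 4 that rose, 3 that were not called and Epsti1. Ifi44 rose from 11.7, 11.8 and 9.91 CPM to 39.2, 29.5 and 40.7 CPM (3.27-fold, adjusted p = 6.12e-09). Xaf1, whose product opposes the caspase inhibitor XIAP, rose from 30.8, 27.3 and 40.6 CPM to 98.8, 90.3 and 102 CPM (2.95-fold, 1.56 ± 0.12, adjusted p = 4.22e-07). NMI and IFI35 bind each other. Nmi rose from 2.2, 2.86 and 2.95 CPM to 6.37, 5.48 and 6.00 CPM (2.23-fold, adjusted p = 9.07e-06). Ifi35 rose from 46.4, 44.0 and 51.3 CPM to 82.4, 77.6 and 77.1 CPM (1.67-fold, adjusted p = 2.67e-07). In all 4 the knockout libraries stood clear of the wild type libraries.

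Ifi27, Phf11d and Slfn2 showed overlapping groups. Ifi27 stood at 49.3, 40.1 and 44.1 CPM in wild type and at 46.2, 47.7 and 53.1 CPM in knockout (0.14 ± 0.08, adjusted p = 0.190). It was called higher with library totals in place of TMM (0.34, adjusted p = 0.00283) and without wild type replicate 1 (0.22, adjusted p = 0.0380). Phf11d ranged from 1.40 to 2.04 CPM and from 1.90 to 2.25 CPM (0.22 ± 0.19, adjusted p = 0.385). Slfn2, a schlafen gene that keeps T cells quiescent, averaged 5.77 CPM in both genotypes (0.00 ± 0.15, adjusted p = 0.998). Phf11d and Ifi27 also have similar neighbours in the genome, so their counts are uncertain.

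**Figure D2:**
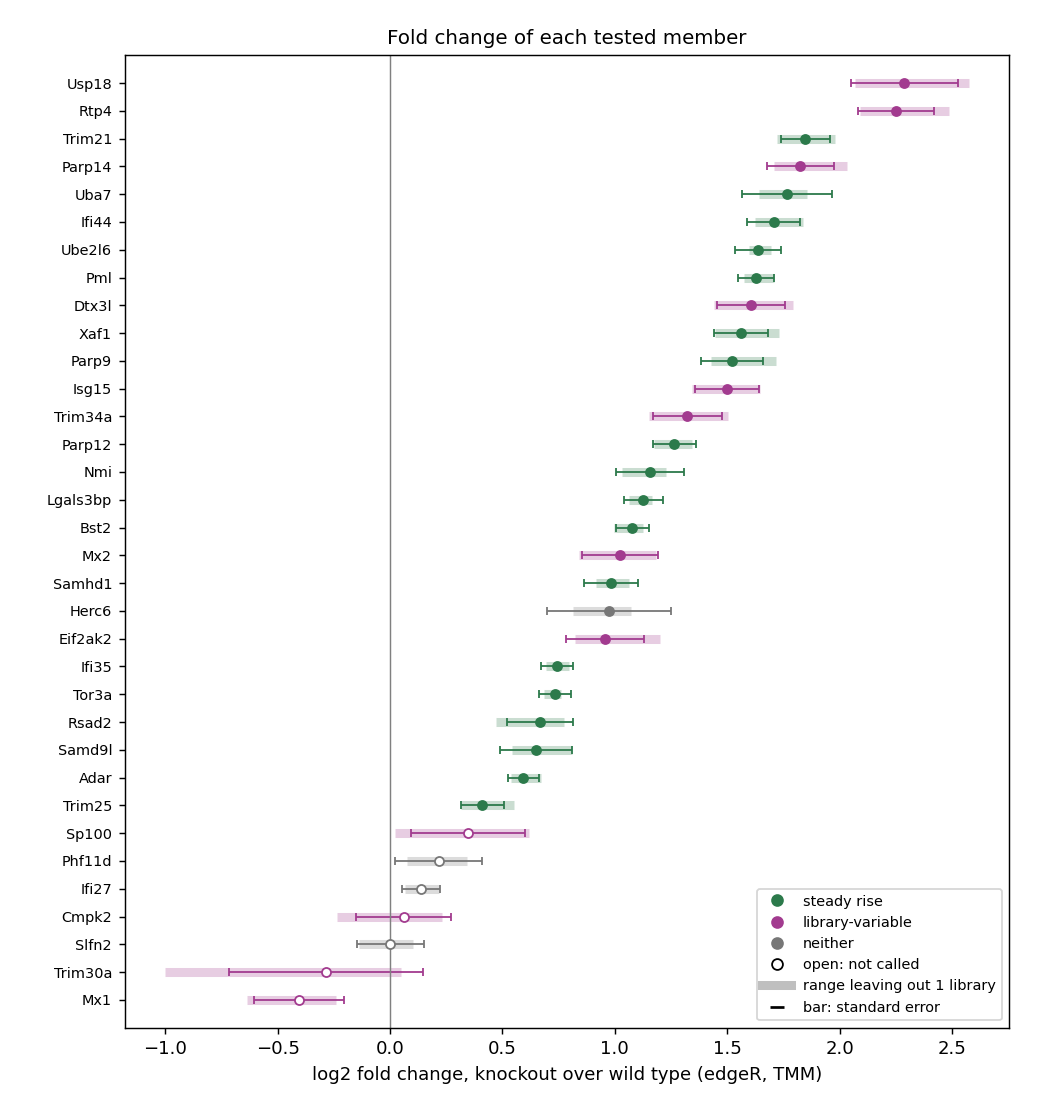
Log2 fold change of knockout over wild type for the 34 tested members (x axis), sorted by size. Points are edgeR estimates with their standard error, open points were not called, and shaded bands span the estimates when each of the 6 libraries is left out in turn. Bands of the called members stay above 0, whereas that of Trim30a runs from -1.0 to 0.048.

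The rises were then divided by how evenly the libraries carried them. A rise was termed steady where the gene was called higher in the full fit and in all 6 fits that leave out 1 library, the groups did not overlap, and the highest library held less than 1.5 times the CPM of the lowest within each genotype. A member with a ratio of 1.5 or more in either genotype was termed library-variable. By this rule 18 of the 34 members had a steady rise, against 14.9% of all genes tested. The rule includes the call, so this contrast carries the difference in the share of calls. Among genes called higher, the steady ones were 18 of 27 members and 2624 of 4387 over all genes tested. Another 12 members were library-variable (35.3% of the members, set beside 34.5% of all genes), a share near that background. Herc6, Ifi27, Phf11d and Slfn2 fell in neither class. Closest to the limit on the inner side among the steady rises were Xaf1 (1.48) and Parp9 (1.46), both in wild type, and on the outer side Parp14 (1.54) and Isg15 (1.55), both in wild type.

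The steady group held Uba7 and Ube2l6 of the ISG15 pathway, Parp9 and Parp12, Trim21, Trim25 and Pml. It also held Adar, Samhd1, Rsad2 and Samd9l, 3 of the 4 membrane and secretory genes (Bst2, Lgals3bp and Tor3a), and Ifi35, Nmi, Ifi44 and Xaf1. Their median log2 fold change was 1.14 (0.41 to 1.85). The 8 library-variable members that were called had a median of 1.55 (0.96 to 2.29), and Usp18 and Rtp4, at the top of all members, were among them. With the 4 that were not called, the median of the 12 was 1.17. With a limit of 25% between the highest and the lowest library, 9 members counted as steady, and with a limit of 2, 25 did.

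**Figure D3:**
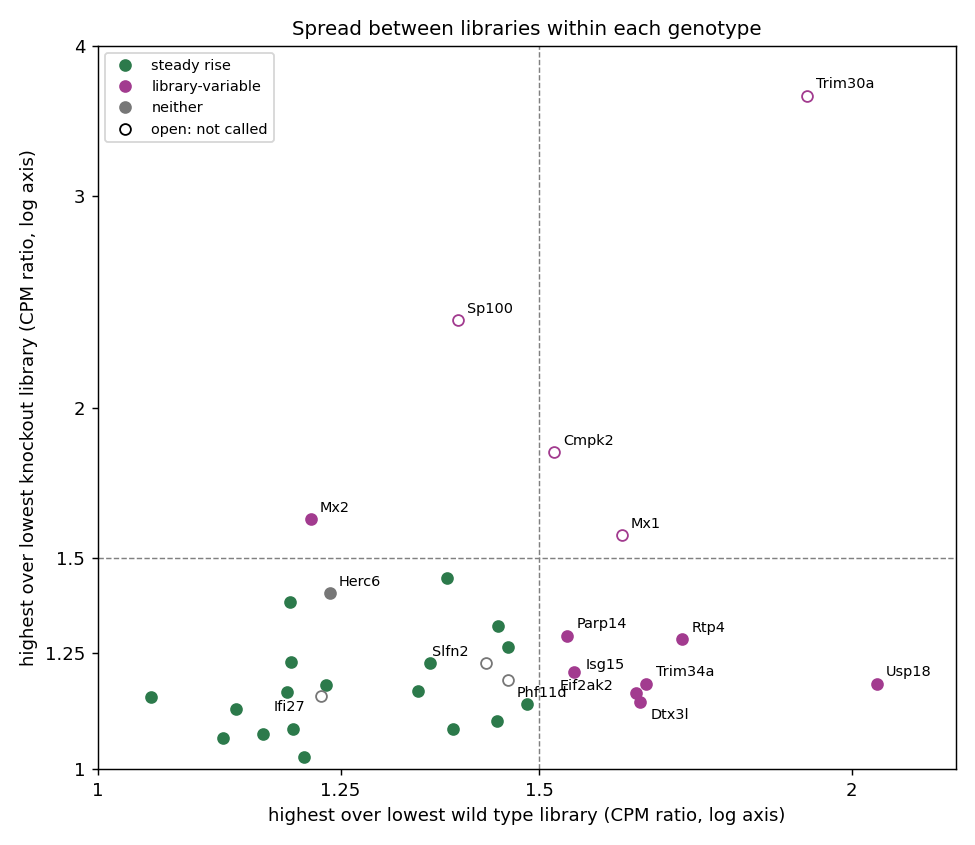
Ratio of the highest to the lowest library within wild type (x axis) and within knockout (y axis) for each tested member, in CPM on log axes, with dashed lines at 1.5. Green points are steady rises, purple points library-variable members and grey points neither, and open points were not called. The library-variable members that were called sit to the right with a wide wild type range, apart from Mx2, and those that were not called sit at the top with a wide knockout range.

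The library-variable members fell apart by genotype of the spread. Of the 8 that were called, 7 (Isg15, Usp18, Dtx3l, Parp14, Trim34a, Eif2ak2 and Rtp4) passed the limit in wild type and not in knockout, and Mx2 passed it in knockout alone. The 4 that were not called, Trim30a, Sp100, Cmpk2 and Mx1, all passed it in knockout, and 3 of them in wild type too. Their log2 fold changes were small (-0.41 to 0.35). A call depends in part on the spread within genotypes, so this split by call is a description and carries no test. Of all 34 members, 25 had a wider range in wild type than in knockout. The share of all genes tested with that order was not computed, so this count has no background. The SD as a percentage of the mean had a median over all genes tested of 10.56% (wild type) and 9.60% (knockout). Its median over the members was 16.99% (wild type) and 8.94% (knockout), and the difference from all genes was not tested.

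Single libraries were high or low in many members at once. Knockout library 4 was the highest knockout library in 25 of the 34 members (73.5%), whereas it was the highest in 34.5% of all genes tested. Wild type library 3 was the highest wild type library in 22 members (64.7%), against 30.2% of all genes, and wild type library 1 in 2 members (5.88%), against 36%. Within wild type, 15 members had library 3 highest and library 2 lowest, and 14 of these were called, among them all 8 library-variable members that rose. A different order held in 6 members, Rsad2, Cmpk2, Mx1, Trim30a, Phf11d and Pml, in which library 2 was highest and library 1 lowest, and 4 of the 6 were not called. The same orders occurred in other interferon-stimulated families. Library 3 was highest and library 2 lowest in 10 of 36 tested genes there, all called higher, including Ifih1, Irgm1 and Oas3. Library 2 was highest and library 1 lowest in 11, including Ifit2, Ifit3 and Iigp1, and 6 of these 11 were not called. Among 22 tested genes of interferon signalling, 7 had that order and 6 of the 7 were called higher, so the order did not go with a missing call there. These orders were noticed in the data and carry no test. Their shares over all genes tested were not computed, so whether they set these genes apart is not known.

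**Figure D4:**
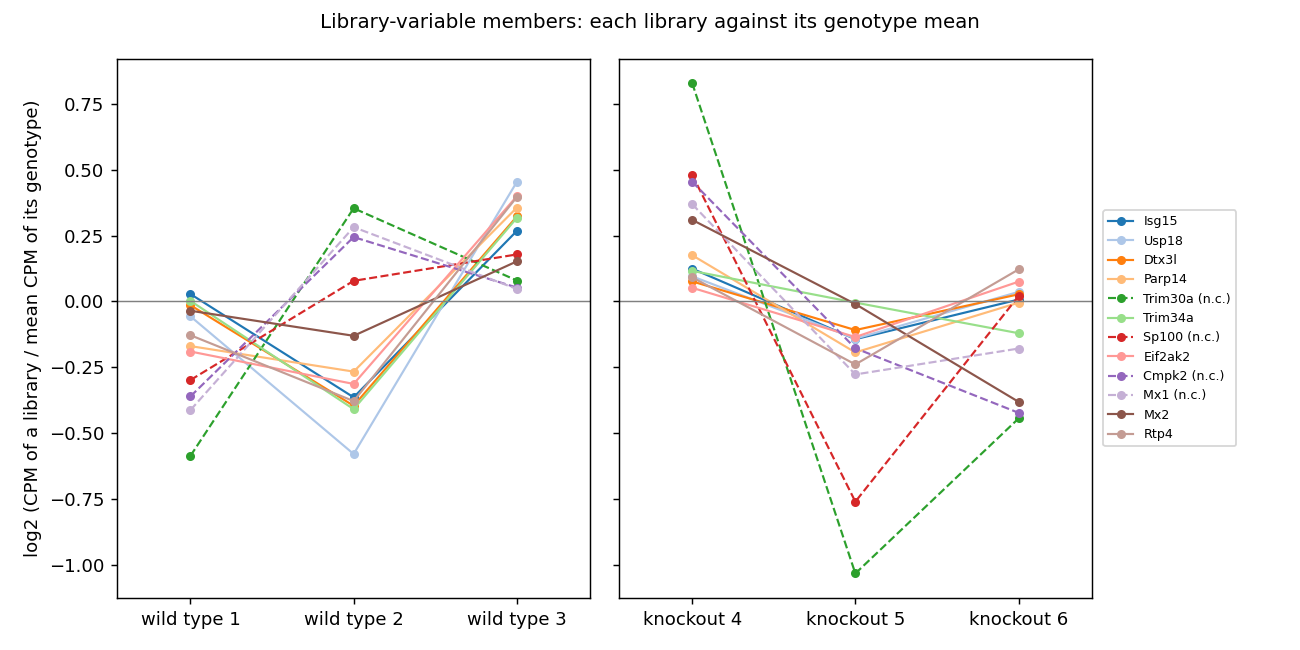
The 12 library-variable members, as log2 of the CPM of a library over the mean of its genotype (y axis), for the 3 wild type libraries (left) and the 3 knockout libraries (right). Lines join the values of 1 gene and imply no order of libraries, and dashed lines mark the 4 members that were not called. In wild type library 2 the 8 called members lie below their mean and the 4 others above it, and in knockout library 4 all 12 lie above it.

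The upstream genes of the pathway are described from a list of 25 interferon ligands, receptors and signalling genes. Of 22 tested, edgeR called 14 higher, against 24.8% of all genes tested, and left 8 uncalled. The median log2 fold change was 0.53. No gene of the list was called lower, against 23.7% of all genes tested. The transcription factor gene Irf1 (2.27, adjusted p = 2.69e-11 by edgeR) and the receptor gene Ifngr2 (0.74, adjusted p = 2.77e-08) were among the 3 with the smallest p. Stat2 rose from 51.8 ± 6.12 to 92.2 ± 4.67 CPM (SD, n = 3 each), by 0.83 log2 units, and Irf9 rose by 0.74. Irf9 was library-variable like Isg15, with 1.76 times between the wild type libraries, and it was no longer called once wild type replicate 1 was left out (0.71, adjusted p = 0.0936) or when low-count genes were left in the fit (0.74, adjusted p = 0.0996). Ifnb1, the gene of interferon beta, had 55, 65 and 60 counts in wild type and 37, 40 and 30 counts in knockout, lower in each library, and was not called (-0.53 ± 0.32, adjusted p = 0.189). Ifnk and Ifng had 0 counts in every library. The type III ligands Ifnl2 (-0.58) and Ifnl3 (-0.22) were not called either. All 6 receptor chain genes tested were higher, by 0.26 (Il10rb) to 1.08 (Ifnlr1) log2 units. The call of Il10rb was weak (adjusted p = 0.0402 by edgeR) and held in 2 of the 6 fits that leave out 1 library, and the other 5 genes were called in all 6. These ligands and receptors were singled out after their values were seen. In the list of 37 genes of other interferon-stimulated families, 26 of 36 tested were higher, against 24.8% of all genes tested. The other 10 were not called, and the median was 1.03, near the 1.05 of the members. Ifitm3 (2.18), Rigi (1.83) and Oasl2 (2.00) had the smallest p there. Both lists were drawn up with earlier results of these data known, so their counts are no independent evidence of direction.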

How the data were processed

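Total RNA of 6 samples was sequenced as paired reads. The authors deposited 1 table of whole-number counts, reads per gene and library without normalization. The submitters' processing notes name FastQC, STAR, HTSeq, DESeq2 and the builds mm39 and GRCm39. Versions, annotation release and strand setting were not given in the sources used here. Symbols were matched by Ensembl identifier (52083 of 55416), with Rigi found under its older symbol Ddx58. RefSeq promoter windows and GENCODE M21 belong to GRCm38, an older assembly, and served for sequences, exon overlap and neighbours.

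Counts were tested with edgeR 4.0.16 in R 4.3.3 (quasi-likelihood, robust), with genotype as the only factor, filterByExpr at a minimum of 10 counts, TMM scaling and Benjamini-Hochberg adjustment over 17659 genes. CPM values are TMM-scaled. Standard errors are the log2 fold change over the square root of F. Alternatives were DESeq2 1.42.0 (test and size factors), library totals, no filter, limma voom (limma 3.58.1) and leaving out each library. All 36 members were named by rule, and members, lists and role groups were chosen with earlier results of these data known. No library pair was alike within sampling noise (chi-square per degree of freedom 19.7 or more). The values of 1 gene of the signalling list are not reported here.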

Additional observations from a re-analysis of the deposited data

How the results depend on the processing

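Members called higher numbered 26 to 28 in every setting run. Without knockout replicate 4 Herc6 was lost, library totals and the fit without wild type replicate 1 added Ifi27, and the fit without knockout replicate 5 added Sp100. Members called lower numbered 1 (Mx1) with no filter on low counts and 0 to 2 when a library was left out. Library totals raised the median of all genes from 0.01 to 0.21 and that of the members from 1.05 to 1.251, and left 2453 genes lower, so that 72.5% of calls were higher in place of 51.1%. Steady rises numbered 9 with a limit of 25% between libraries. Values that changed sign belonged to members that were not called. Slfn2 was -0.011 with DESeq2 size factors and with the DESeq2 test, -0.00047 with no filter, and -0.14 to 0.10 when a library was left out. Under the same leave-outs Cmpk2 ran from -0.24 to 0.23 and Trim30a from -1.0 to 0.048. The causes of these changes were not tested. No paired analysis was possible because the genotypes share no replicate number. Herc6, Uba7, Trim30a, Sp100 and Phf11d had 343 counts or fewer in every library, which limits their precision.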
